A study of Mus musculus with 58 samples.

Results

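The 10 genes described here take part in the cell cycle or restrain it: *Mki67*, *Top2a*, *Mcm2*, *Mcm3*, *Mcm5*, *Mcm6*, *Pcna*, *Ccnd1*, *Ccnd2* and *Cdkn1a*. They were chosen by name, and all 10 were among the 15171 genes of the table. Their reads were counted in hippocampal and cortical tissue of 58 mice, taken from a 1.5 mm coronal slice through the injury site. The mice carried human *APOE3* or *APOE4* in place of the mouse gene on a C57BL/6 background, and either both copies of *Abca1* or 1 copy. At 3 months of age they received controlled cortical impact (TBI) or a sham operation with the same anesthesia and craniotomy, and the brains were collected 14 days later. The *APOE3* mice with both copies of *Abca1* (*E3/Abca1*+/+) numbered 8 sham and 8 TBI, and those with 1 copy (*E3/Abca1*+/-, labelled APOE3het) 7 sham and 6 TBI. The *APOE4* mice numbered 7 sham and 7 TBI with both copies (*E4/Abca1*+/+) and 7 sham and 8 TBI with 1 copy (*E4/Abca1*+/-, labelled APOE4het). Every group held both sexes. All groups were humanized for *APOE*, so none carried the mouse gene, and the sham mice had an opened skull.

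A cell that enters division first makes D-type cyclins, which activate CDK4 and CDK6 and release E2F factors from the retinoblastoma protein. E2F factors drive the genes of DNA replication, including the MCM helicase and PCNA, and the B-Myb and FOXM1 complexes later drive the genes of mitosis. p21, the product of *Cdkn1a*, blocks the cyclin-dependent kinases and is a classical target of p53. In the adult cortex and hippocampus most neurons no longer divide, and the cells known to divide after an injury are glia, invading immune cells, vascular cells and progenitors.

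Replication and mitosis genes differ in the control sequences before their start. The windows below show them for the 3 genes with the largest rises after TBI, *Mki67*, *Top2a* and *Mcm3*, and for *Mcm6*, a subunit of the same helicase as *Mcm3* whose rise was small. Each is the 250 bases upstream of the RefSeq start on build GRCm38.p6, 5′ to 3′ on the minus strand, where all 4 genes lie. The windows are chr7:135716380-135716629 for *Mki67*, chr11:99024190-99024439 for *Top2a*, chr1:20820313-20820562 for *Mcm3* and chr1:128359706-128359955 for *Mcm6*. Capitals mark 3 motifs, each searched on both strands: the CCAAT box (CCAAT), the cell cycle homology region (TTTGAA), and an E2F-type site (TTTCCCGC, TTTCGCGC, TTTGCCGC or TTTGGCGC).
Mki67: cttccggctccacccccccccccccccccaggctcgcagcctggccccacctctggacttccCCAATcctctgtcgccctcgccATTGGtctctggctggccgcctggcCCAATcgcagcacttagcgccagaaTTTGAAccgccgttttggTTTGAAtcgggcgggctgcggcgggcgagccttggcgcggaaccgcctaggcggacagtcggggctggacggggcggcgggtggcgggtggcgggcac
Top2a: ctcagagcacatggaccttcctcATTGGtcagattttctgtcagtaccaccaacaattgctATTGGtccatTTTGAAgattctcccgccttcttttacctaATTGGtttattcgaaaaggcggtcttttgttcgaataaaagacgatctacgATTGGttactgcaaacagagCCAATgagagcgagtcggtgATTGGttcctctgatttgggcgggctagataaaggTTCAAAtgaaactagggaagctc
Mcm3: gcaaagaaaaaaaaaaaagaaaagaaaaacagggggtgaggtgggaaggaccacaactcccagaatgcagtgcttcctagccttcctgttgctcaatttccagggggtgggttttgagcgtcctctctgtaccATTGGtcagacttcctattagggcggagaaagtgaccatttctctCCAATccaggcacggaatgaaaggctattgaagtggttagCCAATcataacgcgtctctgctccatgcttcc
Mcm6: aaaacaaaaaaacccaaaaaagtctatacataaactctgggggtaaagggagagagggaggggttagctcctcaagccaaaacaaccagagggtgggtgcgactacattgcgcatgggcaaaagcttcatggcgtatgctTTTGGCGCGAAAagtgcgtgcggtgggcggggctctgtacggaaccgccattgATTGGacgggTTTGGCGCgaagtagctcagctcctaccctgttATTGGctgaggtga

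*Mki67* held 3 CCAAT boxes and 2 cell cycle homology regions, and *Top2a* held 6 and 2. *Mcm3* held 3 CCAAT boxes and neither other motif. *Mcm6* held 2 CCAAT boxes and 3 E2F-type matches, of which 1 pair overlapped on opposite strands. Of the members not printed, *Mcm2* held 1 CCAAT box and 1 cell cycle homology region, *Mcm5* 2 CCAAT boxes and 2 overlapping E2F-type matches, and *Pcna* 1 CCAAT box. The 2 windows of *Cdkn1a* held none of the 3. Among all 32851 windows of this length, 33.8% held a CCAAT box and 2.79% held 3 or more. A cell cycle homology region was found in 16.0% of all windows and more than 1 in 1.81%, and an E2F-type match in 1.86%. These are matches of letters, and binding was not measured.

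The 10 genes lie on 7 chromosomes, and their levels spanned 2 orders of magnitude. On build GRCm38, *Mki67* lies at chr7:135689784-135716361, *Top2a* at chr11:98992943-99024189, *Mcm3* at chr1:20802968-20820312 and *Mcm6* at chr1:128331590-128359664. *Mcm2* lies at chr6:88883474-88898780, *Mcm5* at chr8:75109569-75128439 and *Pcna* at chr2:132249162-132253314. *Ccnd1* lies at chr7:144929931-144939925, *Ccnd2* at chr6:127125162-127152193 and *Cdkn1a* at chr17:29090976-29100727. Levels are given as counts scaled to library size (CPM), and per kilobase of annotated exon where genes are compared with each other. In the 29 sham mice *Ccnd1* had the highest median level per kilobase, 14.4 CPM, followed by *Ccnd2* with 9.50, *Pcna* with 7.89 and *Cdkn1a* with 5.83. The helicase subunits followed in the order *Mcm6*, *Mcm5*, *Mcm3* and *Mcm2*, with 2.60, 1.41, 0.792 and 0.594 CPM per kilobase. The lowest levels were those of *Mki67*, 0.158, and *Top2a*, 0.143 CPM per kilobase. Each pair of neighbours in this order overlapped over the sham mice except *Mcm2* and *Mki67*. The low levels mean few reads: a single mouse gave 5 to 118 reads of *Mki67*, 4 to 119 of *Top2a* and 10 to 242 of *Mcm3*.

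Over the 4 genotypes together, TBI raised 7 of the 10 genes and lowered 1, *Cdkn1a*, at an adjusted p under 0.05 in edgeR's quasi-likelihood test. Of all 15171 genes 29.0% rose and 24.3% fell in this contrast. Their median log2 fold change was 0.19, beside 0.01 over all genes. Only *Top2a*, *Mki67*, *Mcm3* and *Cdkn1a* moved by more than 0.5 on the log2 scale, and the other members stayed within 0.23 of no change. In single genotypes, 4 members rose and 1 fell in *E3/Abca1*+/+ mice, where 12.3% of 14093 genes rose and 10.9% fell. In *E3/Abca1*+/- mice 3 rose and 1 fell, beside 13.4% and 10.0% of 15026 genes. In *E4/Abca1*+/+ mice none rose and 1 fell, beside 8.82% and 4.87% of 14041 genes. There 4 members had an unadjusted p under 0.05, and DESeq2's Wald test called 1 of them higher. In *E4/Abca1*+/- mice 3 rose and none fell, beside 17.7% and 16.4% of 15083 genes. DESeq2 also called none lower there, and *Cdkn1a* had an unadjusted edgeR p of 0.039.

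**Figure D1:**
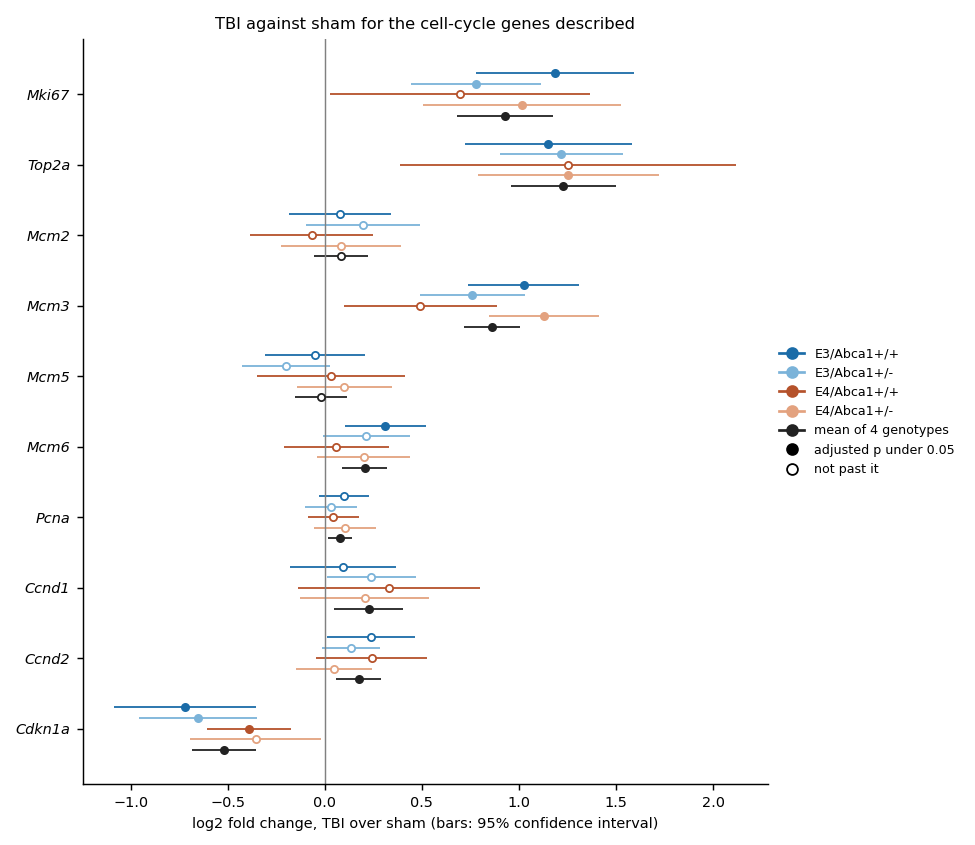
Log2 fold change of TBI over sham for the 10 genes (horizontal axis, bars are 95% confidence intervals) in each genotype and as the mean of the 4 genotypes; filled points passed an adjusted p of 0.05 in edgeR. *Mki67*, *Top2a* and *Mcm3* lie to the right of 0 and *Cdkn1a* to the left in every genotype, while the other 6 genes lie close to 0.

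*Mki67* encodes Ki-67, a protein of mitotic chromosomes that is present in cycling cells and absent from resting ones. In *E3/Abca1*+/+ sham mice its lowest, median and highest levels were 0.747, 1.27 and 1.76 CPM, and in the TBI mice 2.21, 3.01 and 3.44 CPM. In *E3/Abca1*+/- mice they were 1.47, 1.63 and 2.21 CPM after sham and 1.96, 3.08 and 3.56 CPM after TBI. The first genotype was fully separated by injury, while in the second the lowest TBI mouse lay below the highest sham mouse. In *E4/Abca1*+/+ mice *Mki67* ran over 1.10, 2.02 and 2.79 CPM after sham and 1.45, 2.45 and 6.60 CPM after TBI. *E4/Abca1*+/- mice gave 1.28, 1.59 and 2.46 CPM and 1.60, 2.94 and 6.46 CPM. Both E4 genotypes overlapped, and both had 1 injured mouse near 6.5 CPM. The log2 fold changes were 1.18 ± 0.19 (SE), 0.78 ± 0.16, 0.69 ± 0.32 and 1.02 ± 0.24 in the 4 genotypes as listed, with adjusted p of 1.2e-04, 0.0017, 0.17 and 0.0034 in edgeR. The third, *E4/Abca1*+/+, was the one that missed the threshold. Averaged over the genotypes, *Mki67* was 1.90-fold higher after TBI, with an adjusted p of 4.4e-09 in edgeR.

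*Top2a* encodes topoisomerase II alpha, which untangles sister DNA strands in late S phase and mitosis. *E3/Abca1*+/+ sham mice gave 0.812, 1.12 and 1.76 CPM as the lowest, median and highest levels, and TBI mice 1.86, 2.18 and 4.08 CPM. *E3/Abca1*+/- mice gave 1.18, 1.35 and 1.61 CPM and, injured, 2.21, 3.10 and 4.09 CPM. In these 2 genotypes no injured mouse came as low as the highest sham mouse. For *E4/Abca1*+/+ the levels were 0.442, 1.28 and 2.79 CPM after sham and 1.44, 2.04 and 7.92 CPM after TBI. For *E4/Abca1*+/- they were 0.874, 1.71 and 2.08 CPM and 2.17, 3.84 and 4.94 CPM. The groups overlapped in *E4/Abca1*+/+ and did not in *E4/Abca1*+/-. The log2 fold changes lay within a narrow range, 1.15 ± 0.21, 1.22 ± 0.15, 1.25 ± 0.41 and 1.25 ± 0.22 (SE) in the order of the genotypes above. The adjusted p in edgeR was 3.0e-04, 1.8e-05, 0.052 and 3.0e-04, so that *E4/Abca1*+/+ alone missed the threshold. Its log2 fold change was as large as in the rest, but ran from 0.91 to 1.45 with 1 mouse left out. In the other genotypes such fits ran from 1.02 to 1.24, 1.13 to 1.30 and 1.14 to 1.35. As the mean of the genotypes, *Top2a* was 2.34-fold higher, with an adjusted p of 2.2e-11.

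The spread in injured *E4/Abca1*+/+ mice came with 2 female mice. Their *Mki67* levels were 6.60 and 4.38 CPM and their *Top2a* levels 7.92 and 4.48 CPM. The other 5 injured mice of this genotype lay between 1.45 and 2.65 CPM for *Mki67* and between 1.44 and 2.30 CPM for *Top2a*. With sex in the model, *Top2a* passed in this genotype, with a log2 fold change of 1.21 and an adjusted p of 0.010 in edgeR. It also passed with DESeq2's Wald test, with an adjusted p of 0.025, and in a fit that took its spread from all 58 mice, with 0.0018. *Mki67* was not called in *E4/Abca1*+/+ mice in any of the alternative fits in which it was tested.

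**Figure D2:**
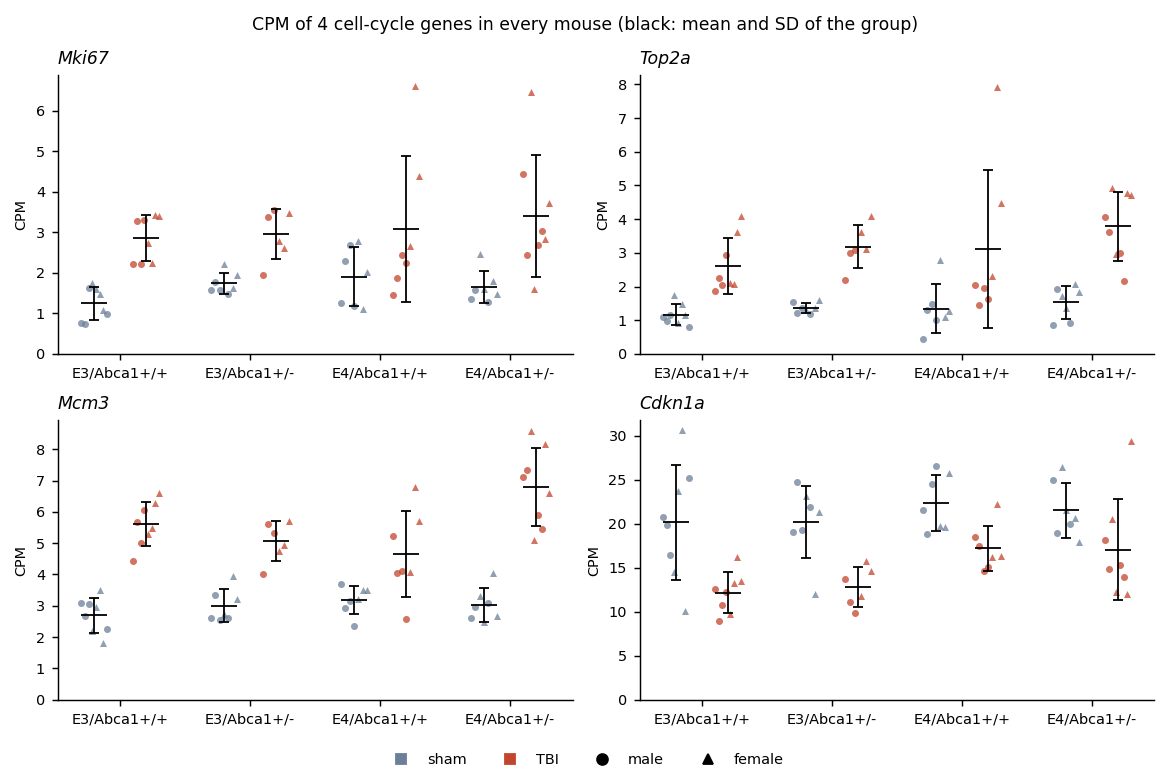
CPM (vertical axis) of *Mki67*, *Top2a*, *Mcm3* and *Cdkn1a* in every mouse, by genotype and operation; circles are males, triangles females, and black bars the mean and SD. *Mki67*, *Top2a* and *Mcm3* sit higher in injured than in sham mice, with 2 high female mice in injured *E4/Abca1*+/+, and *Cdkn1a* sits lower.

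*Mcm3* is 1 of the 6 subunits of the MCM2-7 ring, the helicase that is loaded on replication origins and unwinds DNA in S phase. Its lowest, median and highest levels in *E3/Abca1*+/+ mice were 1.82, 2.83 and 3.52 CPM after sham and 4.43, 5.59 and 6.61 CPM after TBI. In *E3/Abca1*+/- mice they were 2.55, 2.75 and 3.94 CPM and 4.01, 5.14 and 5.72 CPM. Neither of these genotypes overlapped, the second by a margin of less than 0.1 CPM. *E4/Abca1*+/+ mice ran over 2.36, 3.22 and 3.68 CPM after sham and 2.58, 4.10 and 6.79 CPM after TBI, with overlap. *E4/Abca1*+/- mice ran over 2.47, 2.97 and 4.04 CPM and 5.11, 6.87 and 8.58 CPM, without overlap. Of all 29 injured mice, 26 lay above the highest of the 29 sham mice. Log2 fold changes were 1.02 ± 0.14, 0.76 ± 0.13, 0.49 ± 0.19 and 1.13 ± 0.13 (SE). The adjusted p in edgeR was 1.3e-05, 3.6e-04, 0.091 and 7.1e-06, and in the fit over all mice *E4/Abca1*+/+ also passed with 0.022. The mean fold change was 1.82, with an adjusted p of 2.7e-15.

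*Top2a* and *Mcm3* were the members without overlap in 3 genotypes, and *Mki67* in 1. Among all 15171 genes, every TBI mouse lay above every sham mouse for 4.36% in *E3/Abca1*+/+, 6.57% in *E3/Abca1*+/-, 3.76% in *E4/Abca1*+/+ and 7.36% in *E4/Abca1*+/-. The members without overlap numbered 3, 2, 0 and 2 in the same order.

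The other 3 helicase subunits among the 10 genes stayed closer to their sham levels. *Mcm6* rose in *E3/Abca1*+/+ mice, from 7.47, 12.7 and 13.9 CPM as lowest, median and highest level to 13.5, 14.7 and 17.2 CPM. The ranges overlapped, the log2 fold change was 0.31 ± 0.10 (SE), and the adjusted p was 0.029 in edgeR. Thinning all libraries to the lowest total gave 0.069, and leaving out any 1 of 4 mice, TBI replicate 4, 7 or 8 or sham replicate 1, also lost the call (highest adjusted p 0.061). In the other genotypes the log2 fold changes of *Mcm6* were 0.21, 0.06 and 0.20, none past the threshold. The mean over genotypes was 0.20 ± 0.06, with an adjusted p of 0.0025 in edgeR.

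*Mcm2* ran from 2.82 to 6.59 CPM in sham mice and from 2.48 to 6.47 CPM in TBI mice, and *Mcm5* from 2.86 to 7.79 CPM and from 3.71 to 7.72 CPM. No genotype was separated for either gene. Their mean log2 fold changes were 0.08 (95% confidence interval -0.06 to 0.22) and -0.02 (-0.15 to 0.11). These intervals leave out a change of the size seen for *Mcm3*. The last 2 subunits, *Mcm4* and *Mcm7*, were no members but complete the ring, and their mean log2 fold changes were 0.17 ± 0.04 and 0.14 ± 0.04 (SE), both past the threshold.

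**Figure D3:**
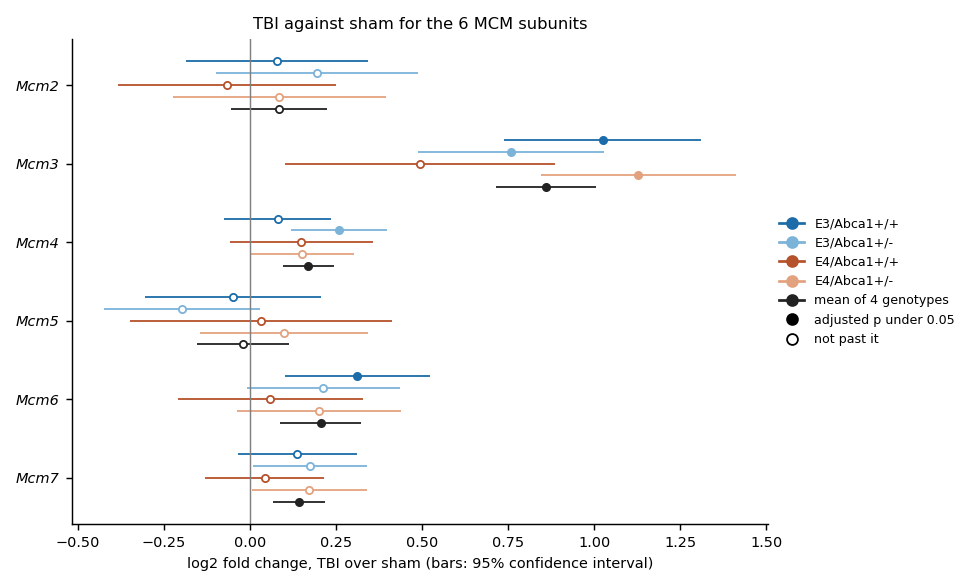
Log2 fold change of TBI over sham (horizontal axis, bars are 95% confidence intervals) for the 6 subunits of the MCM ring in each genotype and as the mean; filled points passed an adjusted p of 0.05 in edgeR. *Mcm3* lies at 0.86 in the mean, and the other 5 subunits between -0.02 and 0.20.

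Within each mouse, *Mcm3* was also set against its partners as the log2 ratio of its count to that of *Mcm2*, *Mcm5* or *Mcm6*, in which library size cancels. *Mcm3* was singled out after its rise was seen, so the ratios are a description with no test. The difference between TBI and sham in the ratio to *Mcm2* was 0.94, 0.55, 0.56 and 1.10 in *E3/Abca1*+/+, *E3/Abca1*+/-, *E4/Abca1*+/+ and *E4/Abca1*+/- mice. For the ratio to *Mcm5* it was 1.11, 0.96, 0.47 and 1.05, and for *Mcm6* 0.72, 0.56, 0.45 and 0.94. All 12 differences were above 0. In *E3/Abca1*+/+ mice the ratio to *Mcm6* was -2.15 ± 0.41 (SD, n = 8) after sham and -1.43 ± 0.15 (SD, n = 8) after TBI. In the 4 genotypes as listed, 8 of 8, 6 of 6, 4 of 7 and 7 of 8 injured mice lay above all sham mice for this ratio. For the ratio to *Mcm2* these were 8, 4, 4 and 7 mice, and for *Mcm5* 8, 6, 5 and 8. Such ratios were not computed for other gene pairs. With the libraries thinned to the lowest total the 12 differences lay between 0.31 and 1.29.

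*Pcna* encodes the sliding clamp that holds DNA polymerase on its template. Its levels spanned a narrow range, from 16.2 to 22.0 CPM in sham mice and from 17.5 to 24.2 CPM in TBI mice. The groups overlapped in every genotype, and the log2 fold changes lay between 0.03 and 0.10 with no call. The mean over genotypes was 0.08 ± 0.03 (SE), with an adjusted p of 0.032 in edgeR. DESeq2's Wald test gave 0.11, DESeq2's size factors in edgeR 0.077 and thinned libraries 0.21, so this call did not outlast a change of method.

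*Ccnd1* and *Ccnd2* encode cyclins D1 and D2, the regulatory subunits of CDK4 and CDK6. *Ccnd1* ran from 40.2 through a median of 67.8 to 92.3 CPM in sham mice and from 48.1 through 79.5 to 126 CPM in TBI mice. *Ccnd2* ran from 68.4 through 89.3 to 133 CPM and from 75.9 through 105 to 139 CPM. Both genes overlapped between sham and TBI in every genotype, and neither was called in a single genotype. Over the 4 genotypes *Ccnd1* was 1.17-fold higher (log2 fold change 0.23 ± 0.09, SE) and *Ccnd2* 1.13-fold higher (0.17 ± 0.06), with adjusted p of 0.028 and 0.0097 in edgeR. In injured *E4/Abca1*+/+ mice *Ccnd1* fell into a lower set of 4 males, 48.1 to 57.3 CPM, and a higher set of 3 females, 97.8 to 126 CPM. Sham mice of that genotype were also apart by sex, with 4 males at 47.5 to 57.2 CPM and 3 females at 62.5 to 91.2 CPM, while in the other 3 genotypes the sexes overlapped after sham and after TBI. The difference between the sexes was not tested. The sex by injury interaction over all mice called none of the 10 genes. A gene on the opposite strand shares 23.4% of the annotated exon bases of *Ccnd1*, and whether the counting used strand is not given in the sources used here, so its reads may be part of the *Ccnd1* count. Smaller overlaps with other annotated genes covered at most 3.95% of the exon bases of *Ccnd2*, 7.68% of *Cdkn1a* and 1.35% of *Top2a*.

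**Figure D4:**
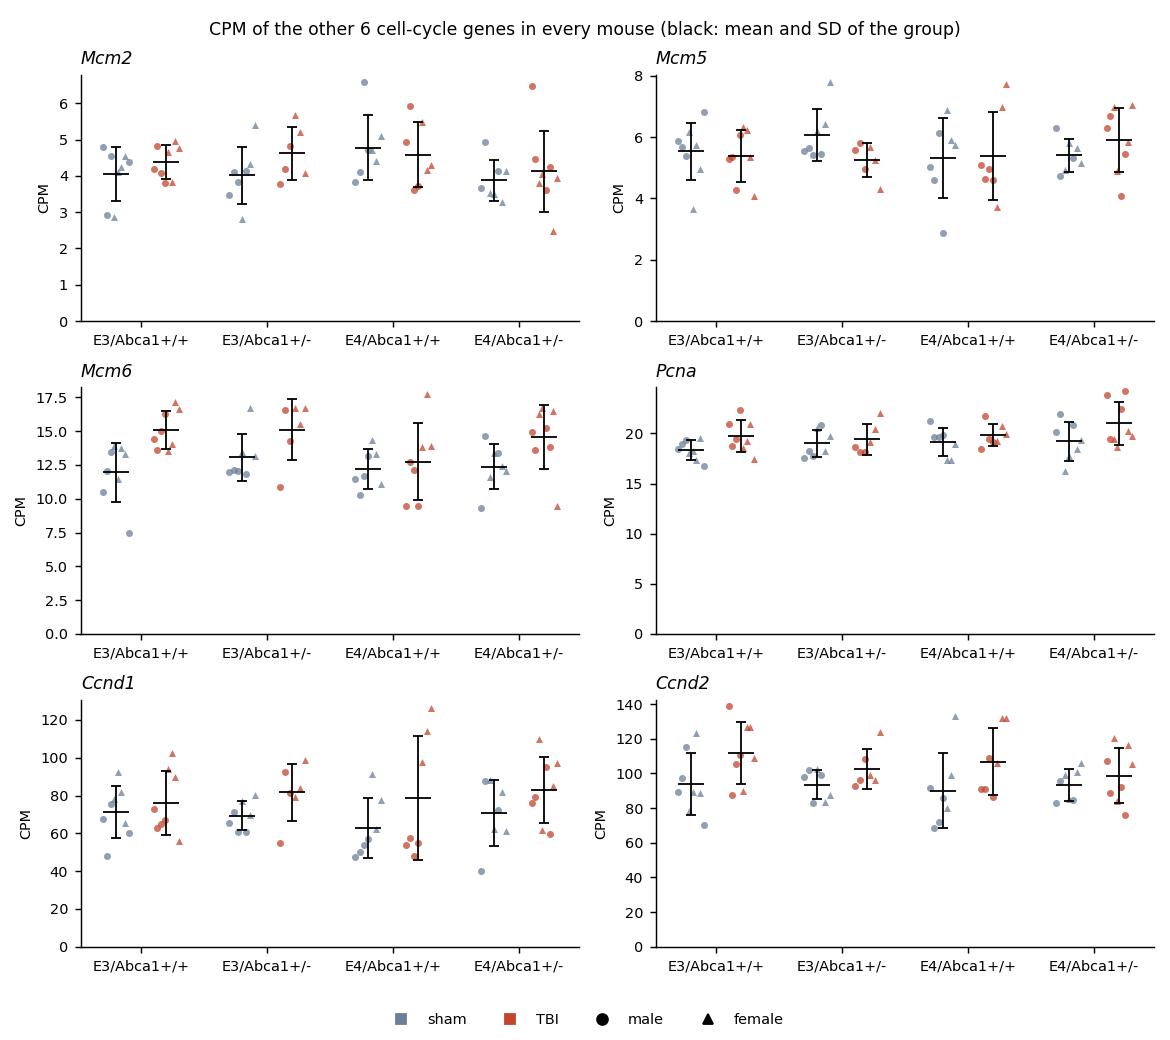
CPM (vertical axis) of *Mcm2*, *Mcm5*, *Mcm6*, *Pcna*, *Ccnd1* and *Ccnd2* in every mouse, by genotype and operation; circles are males, triangles females, and black bars the mean and SD. Sham and injured mice overlap in every panel and genotype.

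*Cdkn1a* was the member that fell. In *E3/Abca1*+/+ mice its lowest, median and highest levels were 10.1, 20.3 and 30.7 CPM after sham and 8.97, 12.4 and 16.2 CPM after TBI. In *E3/Abca1*+/- mice they were 12.0, 21.4 and 24.7 CPM and 9.84, 12.8 and 15.7 CPM. The low end of the sham mice reached into the range of the injured mice in both genotypes. *E4/Abca1*+/+ mice ran over 18.8, 21.6 and 26.6 CPM after sham and 14.6, 16.3 and 22.2 CPM after TBI. For *E4/Abca1*+/- the levels were 17.9, 20.7 and 26.4 CPM and 12.1, 15.1 and 29.4 CPM. Both E4 genotypes overlapped, and the highest injured mouse of the last group stood above all its sham mice. The log2 fold changes were -0.72 ± 0.18, -0.65 ± 0.14, -0.39 ± 0.10 and -0.36 ± 0.16 (SE), with adjusted p of 0.0048, 0.0032, 0.017 and 0.096 in edgeR. Without that high mouse, TBI replicate 8, the change in *E4/Abca1*+/- was -0.52 ± 0.11 and the adjusted p 0.0018 in edgeR. The mouse was picked for its high *Cdkn1a* level, so this fit is a description. In *E4/Abca1*+/+ mice the call was lost in the fit over all mice, with 0.11, and in thinned libraries, with 0.11. The mean over genotypes was -0.52 ± 0.08, a fold of 0.697, with an adjusted p of 3.2e-07.

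The study asked whether *APOE* isoform and loss of 1 copy of *Abca1* alter the response to TBI, and each member was tested for this. No member passed in the 4 comparisons of *Abca1*+/- with *Abca1*+/+ mice in edgeR, 2 of 40 values had an unadjusted p under 0.05, and DESeq2's Wald test called 1. Of all genes, 2.51% passed in E3 sham, 0.18% in E3 TBI, 0.99% in E4 sham and 1.47% in E4 TBI mice. At an unadjusted p under 0.05, 1359 genes were higher and 1070 lower of 14567 in E3 sham mice. In E3 TBI mice these were 715 and 643 of 14966. In E4 mice they were 1157 and 1203 of 14743 after sham and 1277 and 1456 of 14854 after TBI. The largest difference was that of *Mcm3* in injured E4 mice, 0.55 ± 0.17 (log2, SE) higher with 1 copy of *Abca1*, with an adjusted p of 0.11 in edgeR. DESeq2 called it, with an adjusted p of 0.046, and so did the fit over all mice, with 0.0076. The libraries of *Abca1*+/- mice were 2.26 times as deep in the median as those of *Abca1*+/+ mice, and the totals overlapped, 5471936 to 37877346 counts beside 4421308 to 17148953. With all libraries thinned to the lowest total the difference of *Mcm3* was 0.62 ± 0.19, with an adjusted p of 0.13 in edgeR. Marker genes of other cells had the following values in the same comparison. Of 6 microglial markers 1 was called higher with 1 copy of *Abca1* and 4 had an unadjusted p under 0.05 in edgeR, with a median log2 difference of 0.29, and their sum had a median of 579 CPM with 1 copy and 455 CPM with both. Of 6 markers of infiltrating monocytes and macrophages none was called and 2 had an unadjusted p under 0.05, with a median difference of 0.69. Their sum had a median of 259.8 CPM with 1 copy and 82.8 CPM with both. Of the other marker lists no gene was called. Endothelial markers had a median difference of -0.26, and 3 of 5 had an unadjusted p under 0.05. The medians were -0.17 for pericytes and fibroblasts, -0.06 for cortical and hippocampal neurons and -0.03 for neural progenitors. Those of the remaining lists lay between 0.06 and 0.49, with 0.43 for tissue outside cortex and hippocampus. The part of these markers in the difference of *Mcm3* was not tested. The other value of a member with an unadjusted p under 0.05 was that of *Mki67* in sham E3 mice. It was 0.48 ± 0.19 higher with 1 copy of *Abca1*, with an adjusted p of 0.18 in edgeR.

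No member passed in the 4 comparisons of E4 with E3 mice in edgeR either, where 5 of 40 values had an unadjusted p under 0.05 and DESeq2's Wald test called 1. Of all genes, 0.346% passed in *Abca1*+/+ sham, 0.207% in *Abca1*+/+ TBI, 5.27% in *Abca1*+/- sham and 2.87% in *Abca1*+/- TBI mice. At an unadjusted p under 0.05, 676 genes were higher and 584 lower of 14172 in *Abca1*+/+ sham mice. In *Abca1*+/+ TBI mice these were 539 and 472 of 14014. In *Abca1*+/- mice they were 1728 and 1763 of 14920 after sham and 1400 and 1426 of 15121 after TBI. *Cdkn1a* was higher in injured E4 than in injured E3 mice by 0.48 ± 0.11 (log2, SE) with both copies of *Abca1* and by 0.40 ± 0.18 with 1 copy. The adjusted p was 0.13 and 0.25 in edgeR, and 0.013 for the first with DESeq2's Wald test. *Mcm3* was higher by 0.39 ± 0.13 in injured *E4/Abca1*+/- than in injured *E3/Abca1*+/- mice, with an adjusted p of 0.11. With both copies of *Abca1*, *Mki67* was higher in sham E4 than in sham E3 mice by 0.58 ± 0.25 (adjusted p 0.51), and *Mcm6* lower in injured E4 than in injured E3 mice, with a log2 difference of -0.26 ± 0.11 (adjusted p 0.63 in edgeR).

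The fold changes after TBI were then compared between genotypes by interaction terms. In the 2 tests of *Abca1* by injury, the 2 of isoform by injury and the 1 of sex by injury, edgeR and DESeq2 called no member, and 3 of 50 values had an unadjusted edgeR p under 0.05. All 3 were those of *Mcm3*. Its rise was larger with 1 copy of *Abca1* than with both in E4 mice, by 0.65 (95% confidence interval 0.19 to 1.11, log2), smaller in E4 than in E3 with both copies, by -0.54 (-1.0 to -0.07), and larger in E4 than in E3 with 1 copy, by 0.39 (0.01 to 0.77). The adjusted p was 0.95, 1.0 and 0.77 in edgeR. No gene of the table passed in any of these 5 tests, 0.0% of those tested. For *Mcm3*, the term of *Abca1* by injury in E4 mice shares E4 groups with each isoform by injury term, so it is not a separate observation from them. The 2 isoform by injury terms share no group with each other. At an unadjusted p under 0.05, 123 genes lay above and 197 below 0 of 15098 for *Abca1* by injury in E3. In E4 these were 465 and 268 of 15124. For isoform by injury they were 152 and 154 of 14505 with both copies, and 611 and 350 of 15162 with 1 copy. For sex by injury they were 310 and 823 of 15171. For *Top2a* the 4 genotype interactions lay between 0.02 and 0.10. The widest 95% confidence interval among them, that of *Abca1* by injury in E4 mice, reached from -1.03 to 1.06, close to the size of the TBI effect itself.

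The rest of the pathway was described by 5 further lists. Of 30 other genes of the G2 phase and mitosis, 17 rose, 1 fell and 12 did not pass in the mean contrast of TBI with sham. That is 56.7% risen and 3.33% fallen, beside 29.0% and 24.3% of all genes, and the median log2 fold change was 0.28, beside 0.01. Every gene of the table had more than 1 CPM in at least 6 mice, and 30 of the 38 genes of this list were in it. A gene of low level could thus be listed through the injured mice alone. The shares risen may lean upward for that reason, here and in the other lists. *Cdk1*, the kinase that starts mitosis, rose by 1.67 ± 0.19 and *Ckap2*, a spindle protein, by 1.11 ± 0.16 (log2, SE). *Ccnf*, the F-box protein cyclin F, fell by 0.19. In single genotypes 3 of 18 tested rose in *E3/Abca1*+/+, 16.7% beside 12.3% of all genes, and 7 of 30 in *E3/Abca1*+/- mice, 23.3% beside 13.4%. In *E4/Abca1*+/+ mice 0 of 19 rose in edgeR, beside 8.82% of all genes, and 0 had an unadjusted p under 0.05 or was called by DESeq2's Wald test. In *E4/Abca1*+/- mice 13 of 30 rose, 43.3% beside 17.7%. *Ccnf* fell in both *Abca1*+/- genotypes, by 0.34 and 0.28. The filter on low counts left fewer of these genes to test in the *Abca1*+/+ fits, so the counts do not cover the same genes.

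Of 30 other replication genes 12 rose and 1 fell, with a median of 0.11. The shares were 40% and 3.33%, beside 29.0% and 24.3% of all genes. The smallest p-values were those of *Rpa2*, a subunit of the single-strand binding protein, with a log2 fold change of 0.24 ± 0.05 (SE), and of *Mcm4*. The gene that fell was *Dut*, the dUTPase, by 0.10. Most changes in this list were small, and the largest was that of *Uhrf1*, a factor for copying DNA methylation, with 0.59 ± 0.16, named here for its size.

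Among 18 other genes of G1 cyclins, CDKs, Rb and E2F factors 8 rose and 2 fell, with a median of 0.05. The shares were 44.4% and 11.1%, beside 29.0% and 24.3% of all genes. *Cdk4*, the partner of the D cyclins, rose by 0.27 ± 0.03 and *Myc* by 0.50 ± 0.06 (log2, SE). *E2f1* fell by 0.33 and *Ccne1*, cyclin E1, by 0.12. Of 5 other CDK inhibitors 2 rose, 40% beside 29.0% of all genes, and none fell, beside 24.3%. *Cdkn2b*, which encodes p15, rose by 1.07 ± 0.16 and *Cdkn2c*, which encodes p18, by 0.60 ± 0.10. *Cdkn1a* thus moved in the opposite direction to both.

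Since *Cdkn1a* is a p53 target, 22 other p53 target genes were counted, of which 7 rose, 5 fell and 10 did not pass, with a median of 0.04. The shares, 31.8% risen and 22.7% fallen, were near the 29.0% and 24.3% of all genes. The death receptor gene *Fas* rose by 1.13 ± 0.11 and *Cd82* by 0.55 ± 0.06 (log2, SE). *Ddit4l* fell by 0.39 and *Zmat3* by 0.17.

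**Figure D5:**
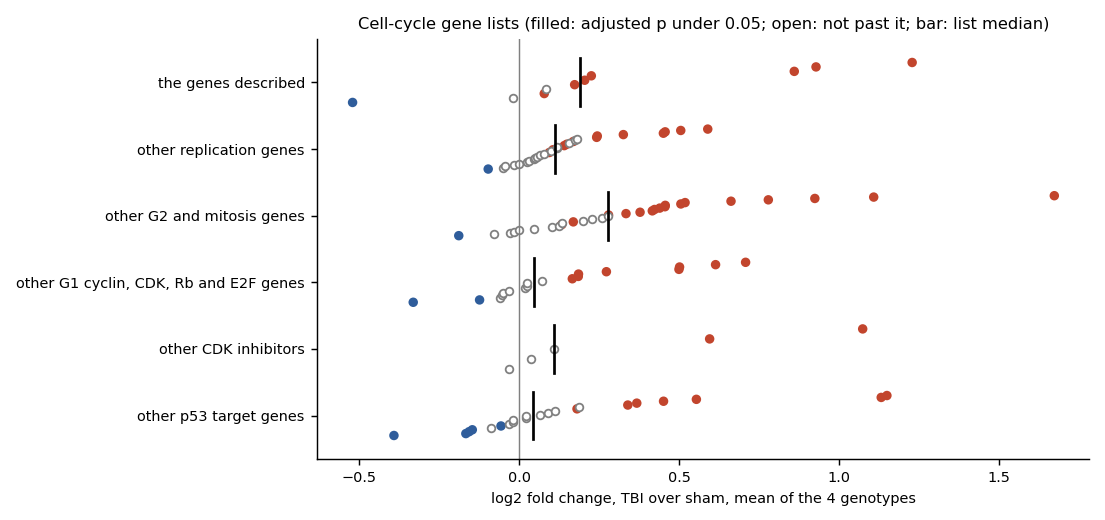
Log2 fold change of TBI over sham as the mean of the 4 genotypes (horizontal axis) for the 10 genes and 5 further lists; red points rose and blue points fell at an adjusted p of 0.05 in edgeR, open points did not pass, and black bars are list medians. The list of G2 and mitosis genes has the highest median, 0.28.

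Marker genes of cell types were counted in the mean contrast of TBI with sham in the same mice, where 29.0% of all genes rose and 24.3% fell. All 6 microglial markers rose, and their sum ran from 236 to 326 CPM in sham mice and from 383 to 704 CPM in TBI mice. All 6 markers of infiltrating monocytes and macrophages rose, with a sum of 6.21 to 63.2 CPM after sham and 57.5 to 681 CPM after TBI. In each comparison of sham mice alone only 3 of these 6 were kept for testing, so the others may be listed through the injured mice. The 5 astrocyte markers all rose, with sums of 1327 to 2000 CPM and 2180 to 5385 CPM. For microglia and astrocytes, the sums of sham and injured mice did not overlap.

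Among other cell types, 4 of 6 neural progenitor and neuroblast markers rose (sums of 94.3 to 134 CPM and 92.3 to 173 CPM), and 3 of 5 markers of oligodendrocyte precursors (216 to 304 CPM and 229 to 368 CPM). For endothelial cells 4 of 5 rose (129 to 178 CPM and 115 to 248 CPM), and for pericytes and fibroblasts 5 of 6 (103 to 190 CPM and 74.9 to 365 CPM). The shares risen of these 4 lists were 66.7%, 60%, 80% and 83.3% in the order given, beside 29.0% of all genes. Both listed neutrophil markers rose, with sums of 0 to 1.07 CPM and 0.289 to 17.9 CPM. For T and NK cells *Cd8a* alone was listed, at 0 in 16 mice and at most 1.72 CPM. Every gene of the table had more than 1 CPM in at least 6 mice. In sham mice *Cd8a* reached at most 0.285 CPM and the neutrophil sum at most 1.07 CPM. The neutrophil markers and *Cd8a* thus needed the injured mice to be listed, so their rise is not read as a result. Mature oligodendrocyte markers rose for 2 of 5 (2111 to 3410 CPM and 2195 to 3757 CPM), 40% beside 29.0% of all genes.

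The neuronal markers of cortex and hippocampus were all present, which fits the labelled tissue, and 6 of 7 fell while 1 rose, with sums of 5508 to 6228 CPM after sham and 3960 to 5732 CPM after TBI. Markers of tissue outside cortex and hippocampus summed to 66.1 to 1344 CPM and 76.3 to 2029 CPM. Of these 2 of 6 rose, 33.3%, which is near the 29.0% of all genes. The group medians of this sum lay between 81.3 and 119 CPM except in *E4/Abca1*+/- TBI mice, where it was 365.0 CPM. The part of these shifts in the changes of the 10 genes was not tested. In bulk tissue, fewer cells of a type and less RNA per cell cannot be told apart, and the same holds for more cells and more RNA.

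Finally, the genes whose levels followed each member most closely were listed over the 58 mice, as Pearson correlations of log2(CPM + 1) after the mean of each group was subtracted. All points of a pair share libraries and depth, and the values are given as a description. *Mki67* was most like *Tcn2*, *Top2a* and *Ptprc*, with r between 0.737 and 0.740, and *Top2a* most like *Olfml3*, *Ctsd* and *Ptprc*, with r between 0.789 and 0.796. The genes most like *Mcm3* included *Srgn*, with r = 0.679, and *Msn*, with r = 0.674. Between *Mki67* and *Top2a* r was 0.740, the highest among pairs of members.

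*Ccnd1* was most like *Chst11*, *Golm1* and *Dgkb*, with r between 0.855 and 0.876, and *Ccnd2* most like *Tiparp*, *Mapk1ip1l* and *Uspl1*, between 0.772 and 0.807. For *Cdkn1a* the genes were *Bcor*, *Pfkfb3* and *Dio2*, between 0.685 and 0.696, and for *Mcm6* *Sytl4*, *Rarres2* and *Il1r1*, between 0.662 and 0.727. *Pcna* was most like *Pgam1*, *Tprgl* and *Fam216a*, between 0.546 and 0.591. The closest genes to *Mcm2* were *Stub1*, *Ifitm10* and *Mbtps1*, between 0.514 and 0.522, and those to *Mcm5* were *Tlr1*, *Adamts5* and *Smn1*, between 0.495 and 0.523. None of the 3 genes closest to *Mcm2*, *Mcm3*, *Mcm5* or *Mcm6* was another subunit of the MCM ring. These lists are the top of a search over all genes with a mean of at least 1 CPM, which alone favours high values. *Mcm2*, *Mcm3* and *Mcm5* had as few as 13, 10 and 16 reads in a mouse. *Mki67* and *Top2a*, with as few as 5 and 4 reads, had a highest r of 0.740 and 0.796. The part of read number in a missing partner was not tested, so a missing partner is not read as a result.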

How the data were processed

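The authors deposited raw read counts per gene for 58 mice, made from brain RNA libraries with Subread and featureCounts 1.5.0 on build mm10, per the labels and the study's methods. Whether the counting used strand is not given in the sources used here. The table held 15171 genes after 2 blank lines were removed and 23 symbols turned into dates were renamed from their identifiers. Each of these genes had more than 1 CPM in at least 6 mice. The replicates are separate mice, and no 2 columns were identical. Totals ran from 4421308 to 37877346 counts. CPM values used TMM factors from edgeR (0.954 to 1.038).

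Groups were compared in separate fits with edgeR's quasi-likelihood test (edgeR 4.0.16, R 4.3.3) on genes kept by filterByExpr, with Benjamini-Hochberg adjustment over all genes tested and a threshold of 0.05. The mean contrast and the sex by injury interaction used all mice. All 10 genes were kept in every main fit. Alternatives were DESeq2 1.42.0 (Wald test, and size factors in edgeR), no filter, counts thinned to the lowest total, each mouse left out, a covariate for sex and a single fit over all mice. Ratios of MCM counts were described without a test, and their alternative, thinned counts, was chosen after seeing the data. Permutation tests over all mice and within sex were run on these ratios and are not used, because *Mcm3* was chosen after its values were seen. Exon lengths and positions came from GENCODE M21, the union of all annotated exons, and promoter windows from RefSeq, which matched 8 of the 10 genes. Fits and tests were tried on simulated counts with known changes.

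The 10 genes and the further lists were chosen with earlier results of these data known. The genes named are the members, in each further list the 2 with the smallest p in each direction in the mean contrast, the 3 genes most like each member with a mean of at least 1 CPM, and exceptions said to be such. Some genes under this rule are not reported here. List genes not analysed here are *Mcm10*, *Tk1*, *Chaf1b*, *Ccnb1*, *Aurkb*, *Bub1*, *Ube2c*, *Ncapg*, *Cks2*, *Ttk*, *Melk*, *Cdk6*, *E2f7*, *E2f8* and *Cdkn2a*, and the markers *Cd3e*, *Cd3g*, *Nkg7*, *Gzmb*, *Ngp*, *Camp* and *Eomes*.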

Additional observations from a re-analysis of the deposited data

Results flagged for a closer look

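In 3 of the 80 combinations of gene and group, 1 mouse stood far from the others by the ratio of its gap to the whole range (Dixon's 95% limit, which chance passes in about 1 group in 20). In *E3/Abca1*+/- sham mice, replicate 7 had the highest *Mcm5* level, 7.79 CPM, with the next mouse at 6.42 CPM, and replicate 6 the highest *Mcm6* level, 16.7 CPM, with the next at 13.4 CPM. In *E4/Abca1*+/- TBI mice, replicate 8 had the lowest *Mcm6* level, 9.43 CPM, with the next at 13.6 CPM. The same mouse had the highest *Cdkn1a* level of its group, 29.4 CPM, and its *Top2a* and *Mki67* levels were 4.71 and 3.73 CPM, inside the range of its group. Without it, *Mcm6* rose in *E4/Abca1*+/- mice by 0.26 ± 0.09 (log2, SE; edgeR adjusted p 0.032), and *Cdkn1a* fell by 0.52 (adjusted p 0.0018). With all mice the edgeR adjusted p was 0.19 for *Mcm6* and 0.096 for *Cdkn1a*. Of the 15 fits of this genotype with 1 mouse left out, only that without replicate 8 called either gene. The mouse was picked by these same levels, so the fit without it is a description.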

How the results depend on the processing

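The numbers of the 10 genes called higher and lower stayed within 1.5 times the main number in 200 of 210 alternative values that kept every mouse. Most of these values belong to comparisons of genotypes and interactions, where no member was called in the main fit and 0 that stays 0 counts as kept. With libraries thinned to the lowest total, 1 member rose in *E3/Abca1*+/+ and 1 in *E3/Abca1*+/- mice, and 0 fell in *E4/Abca1*+/+. Thinning left *Mki67* and *Top2a* out of the test in *E3/Abca1*+/+, *E3/Abca1*+/- and *E4/Abca1*+/+ mice, which accounts for 2 of the calls lost in each E3 genotype. In *E4/Abca1*+/+ mice 1 member rose with sex as a covariate, 1 with DESeq2's Wald test and 2 in the single fit over all mice, where 0 fell. In the comparison of *Abca1*+/- with *Abca1*+/+ injured E4 mice 1 member was higher in the single fit and 1 with DESeq2's Wald test, and in that of injured E4 with E3 *Abca1*+/+ mice 1 with DESeq2's Wald test. The cause of these changes was not tested. In thinned libraries 3 values with no call changed sign, *Mcm6* in *E3/Abca1*+/- (-0.00325) and *E4/Abca1*+/+ (-0.0699) and *Mcm2* in *E4/Abca1*+/+ (0.0211) mice.

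Leaving out 1 mouse at a time, the number of members that rose ran from 3 to 5 in *E3/Abca1*+/+, 3 to 5 in *E3/Abca1*+/- (5 without TBI replicate 1), 0 to 2 in *E4/Abca1*+/+ (1 or 2 without TBI replicate 2, 3 or 4 or sham replicate 5 or 7) and 3 to 4 in *E4/Abca1*+/- mice. The number that fell was 1 in each fit of the first 3 genotypes and 0 or, without TBI replicate 8, 1 in *E4/Abca1*+/-. *Mki67*, *Top2a* and *Mcm3* kept their calls in each such fit of *E3/Abca1*+/+, *E3/Abca1*+/- and *E4/Abca1*+/- mice, and *Cdkn1a* in those of the first 3 genotypes. Values with no call that changed sign ran from -0.0998 to 0.00896 (*Mcm5*, *E3/Abca1*+/+), -0.00379 to 0.0577 (*Pcna*, *E3/Abca1*+/-), -0.137 to 0.0254 (*Mcm2*, *E4/Abca1*+/+), -0.0850 to 0.0938 (*Mcm5*, *E4/Abca1*+/+), -0.0267 to 0.133 (*Mcm6*, *E4/Abca1*+/+) and -0.0292 to 0.143 (*Mcm2*, *E4/Abca1*+/-). No paired analysis was possible because the labels give no replicate numbers shared between groups, only single animals. Depth limits *Mki67* and *Top2a* most, with as few as 5 and 4 reads in a mouse.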
